A study of Mus musculus with 2 samples.

Results

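The mouse angiogenin genes encode small secreted ribonucleases, and all 5 rows of the count table whose symbol is Ang or Ang with a digit were taken, out of 27376 genes: Ang, Ang2, Ang4, Ang5 and Ang6. The family was chosen by the read ratios of Ang4 and Ang5 between the libraries, which were among the highest of all genes, so the ratios below describe those libraries and are not tested. RNA was sequenced from fresh prostate tumour tissue of mice aged 16 months, with 1 library per genotype. The genotypes are named Met_Bcat, which combines MET (the hepatocyte growth factor receptor) with beta-catenin, and Bcat_Only, which carries altered beta-catenin alone, as far as the names state. The column heading of the Bcat_Only library also names the allele Bcat_ex3Plus and the driver PB_Cre, while that of the Met_Bcat library names neither allele nor driver, and nothing in the labels says which MET allele was used. No sorting of cells is described, so epithelial, stromal and immune RNA were measured together, and fewer cells of a type cannot be told apart from less RNA per cell.

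Reads assigned to genes numbered 20117724 in Met_Bcat and 19301062 in Bcat_Only. With 1 library per genotype there is no replicate check, and every interval below covers counting error only. The libraries carried PCR copies and no molecular identifiers, so reads are not independent molecules. For each of 14354 genes whose mean level was 1 CPM (read count scaled to a common library size) or more, the ratio was given a 95% exact interval, and the gene was called higher or lower when even the interval end closer to 1 was 2-fold or more away from it. By this rule 4.42% of genes were called higher in Met_Bcat and 14.6% lower. The labelled tissue was checked with 12 luminal epithelial genes, all of which were detected in both libraries. Their summed level was 6289 CPM in Met_Bcat and 3836 CPM in Bcat_Only. Fibroblast, macrophage, neutrophil and seminal vesicle genes went the other way, with every one of the 7, 5, 7 and 6 genes listed called lower in Met_Bcat.

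Angiogenin was first isolated as a protein that induces blood vessel growth. It belongs to the RNase A superfamily, cleaves tRNA in stressed cells, is blocked by the cytosolic ribonuclease inhibitor RNH1 and binds plexin-B2 on the cell surface. Humans have a single angiogenin gene, whereas the mouse has several closely related copies on chromosome 14. Of these, Ang4 is known as a microbe-killing product of intestinal Paneth and goblet cells. The symbol Ang2 here is an angiogenin gene and not angiopoietin 2, whose symbol is Angpt2.

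The promoters of Ang4, Ang5 and Ang are shown as sequences, and any link between promoter and ratio was not tested. The RefSeq promoter table, on build GRCm38.p6, holds 4 of the 5 genes and lacks Ang2. Each promoter is given as 250 bases before and 50 bases after the start of the gene. The sequences below run 5′ to 3′ on the gene's own strand, with capitals for a TATA-type element (TATAAA or TATATA, searched on both strands). The Ang4 promoter is chr14:51773541-51773840 on the minus strand, that of Ang5 is chr14:43956819-43957118 on the plus strand, and that of Ang is chr14:51090827-51091126 on the plus strand.
Ang4: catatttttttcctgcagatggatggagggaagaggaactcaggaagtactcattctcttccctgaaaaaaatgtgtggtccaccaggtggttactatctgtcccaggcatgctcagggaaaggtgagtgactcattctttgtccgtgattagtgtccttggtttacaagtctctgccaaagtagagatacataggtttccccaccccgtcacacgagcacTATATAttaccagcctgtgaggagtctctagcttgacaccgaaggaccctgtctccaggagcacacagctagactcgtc
Ang5: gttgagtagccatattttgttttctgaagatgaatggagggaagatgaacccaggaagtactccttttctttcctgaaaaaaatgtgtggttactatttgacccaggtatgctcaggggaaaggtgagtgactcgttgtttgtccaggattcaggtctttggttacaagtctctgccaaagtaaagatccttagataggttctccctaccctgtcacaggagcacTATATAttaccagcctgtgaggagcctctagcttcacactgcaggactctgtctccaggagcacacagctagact
Ang: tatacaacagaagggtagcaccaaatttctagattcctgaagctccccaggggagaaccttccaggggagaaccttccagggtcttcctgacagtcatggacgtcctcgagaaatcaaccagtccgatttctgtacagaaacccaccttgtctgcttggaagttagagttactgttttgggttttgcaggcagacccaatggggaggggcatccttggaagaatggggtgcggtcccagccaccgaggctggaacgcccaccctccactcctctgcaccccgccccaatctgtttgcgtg

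The Ang6 promoter, at chr14:44006369-44006668 on the minus strand, was identical to that of Ang5 in 300 of 300 bases. The Ang4 promoter matched that of Ang5 in 84.7% of bases after alignment, and the Ang promoter matched that of Ang5 in 49.7%. The Ang4, Ang5 and Ang6 promoters each hold TATATA, which begins 29 bases before the start site in Ang4 and 25 bases before it in Ang5 and Ang6. The Ang promoter holds no such element and is richer in CpG, with 8 CpG against 5 in Ang4 and 1 in Ang5. A TATA-type element was found in 17.1% of all 32851 promoters of the table. The window of Ang is also listed, with the same coordinates, as a promoter of the neighbouring ribonuclease gene Rnase4. The beta-catenin partner motif TCF/LEF (CTTTG followed by 2 bases that are each A or T) and the androgen receptor half-site AGAACA, searched on both strands, were in none of the 4 windows, against 16.9% and 19.0% of all promoters. Rnase4 has another listed window, which begins at base 51095750 and is not listed for an angiogenin gene. That window holds a TATA-type element, 1 TCF/LEF match and 1 androgen receptor half-site. The absence of these motifs thus applies to the 4 angiogenin windows and not to every Rnase4 promoter. These matches describe letters in a window, not binding.

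In the Met_Bcat tumour library 4 of the 5 angiogenin genes, Ang4, Ang5, Ang6 and Ang2, stood at levels many times those of the Bcat_Only library, and the founding member Ang differed by about 2-fold. The reads of all 5 genes summed to 4348 in Met_Bcat and 507 in Bcat_Only, or 206 CPM against 27.5 CPM, a ratio of 7.50 (95% interval 6.84 to 8.24). The members called higher were 4 of 5, beside 4.42% of all genes, and none was called lower. Since the family was noticed through this same contrast, the count adds nothing to the values. Of these members Ang2, Ang4 and Ang6 lay under 1 CPM in Bcat_Only and passed the minimum only through their level in Met_Bcat.

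**Figure D1:**
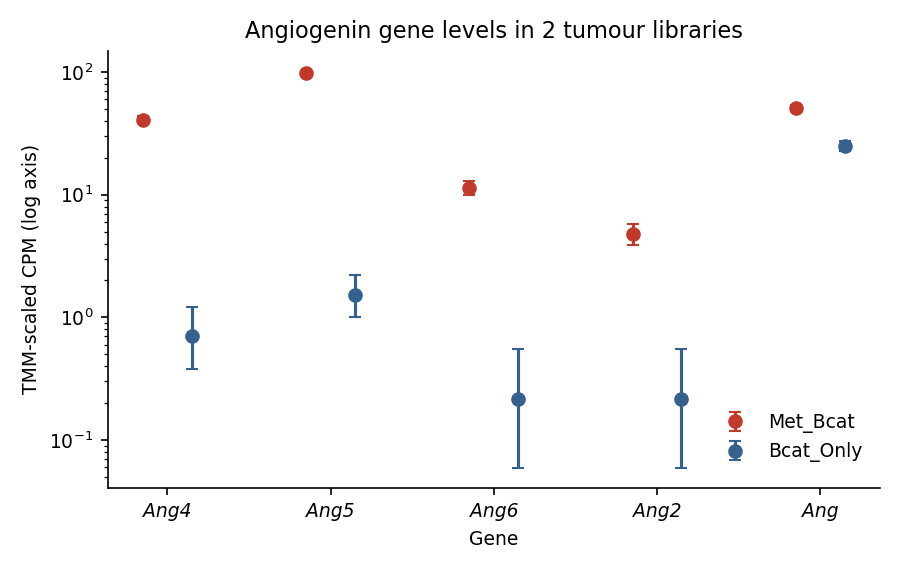
Level of each angiogenin gene in TMM-scaled CPM on a log axis, with 1 point per library (Met_Bcat left, Bcat_Only right of each pair) and bars for the exact 95% Poisson counting interval. Ang4, Ang5, Ang6 and Ang2 are far apart between the libraries, and Ang, at 51.0 and 24.9 CPM, is the only gene above 2 CPM in Bcat_Only.

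Ang5 (ENSMUSG00000053961, mm9 chromosome 14, 44534734 to 44540745, plus strand) had the most angiogenin reads in Met_Bcat. It had 2074 reads or 98.4 CPM in Met_Bcat and 28 reads or 1.52 CPM in Bcat_Only, a ratio of 64.8 (44.7 to 97.7). Only 8 of the 14354 genes had a near interval end higher than that of Ang5. Little is established about the function of the Ang5 protein.

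Ang4 (ENSMUSG00000060615, 52383553 to 52393265, minus strand), the microbicidal member, had 861 reads or 40.9 CPM in Met_Bcat and 13 reads or 0.706 CPM in Bcat_Only. The ratio was 57.9 (33.7 to 109), and its interval contained that of Ang5. Ang4 and Ang5 lie 7842807 bases apart and are not neighbours. Both drew notice through their high ratios, so the likeness of those ratios adds nothing to the values.

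Ang6 (ENSMUSG00000072598, 44579329 to 44584083, minus strand) is the neighbour of Ang5, 38584 bases away and on the opposite strand. It had 238 reads or 11.3 CPM in Met_Bcat and 4 reads or 0.217 CPM in Bcat_Only, a ratio of 52.0 (20.0 to 192). Ang2 (ENSMUSG00000047894, 51815161 to 51815598, minus strand) had 101 reads or 4.79 CPM in Met_Bcat and also 4 reads in Bcat_Only, a ratio of 22.1 (8.36 to 82.6). Both genes rest on few reads in Bcat_Only, and the intervals of all 4 ratios have a range in common, from 44.7 to 82.6.

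Ang itself (ENSMUSG00000072115, 51710752 to 51721682, plus strand), the mouse counterpart of human angiogenin, was detected well in both tumours. It had 1074 reads or 51.0 CPM in Met_Bcat and 458 reads or 24.9 CPM in Bcat_Only, a ratio of 2.05 (1.84 to 2.29). Its interval reaches below 2-fold, so Ang was not called, although it was called higher with libraries scaled to their total counts. The interval does not overlap the interval of any other member. Among all genes considered, the log2 ratio of Ang on CPM plus 0.5, at 1.02, was at the 94.3rd percentile.

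**Figure D2:**
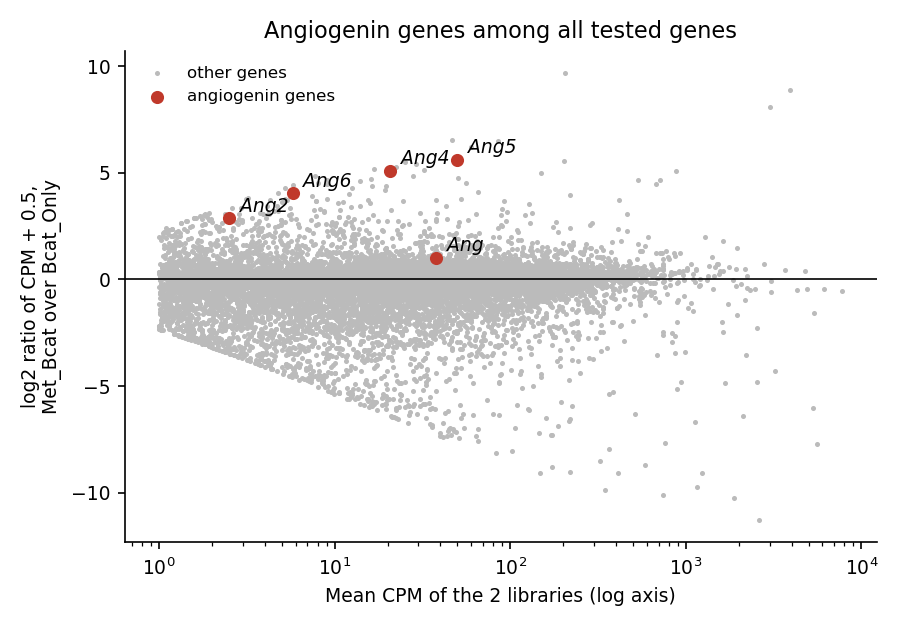
Log2 ratio of CPM plus 0.5, Met_Bcat over Bcat_Only, against the mean CPM of both libraries on a log axis, with 1 grey point for each of the 14354 genes tested and red points for the 5 angiogenin genes. Ang5, Ang4 and Ang6 lie at the upper edge of the cloud at 5.61, 5.10 and 4.04, Ang2 lies at 2.88, and Ang lies at 1.02.

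The order of the members differed between the tumours. Levels per kilobase of exon (RPKM, the CPM divided by exon length) in Met_Bcat were 139 RPKM for Ang5, 57.6 for Ang4, 40.03 for Ang, 15.8 for Ang6 and 10.9 for Ang2. The counting intervals of no neighbours in this order overlapped. In Bcat_Only the order was Ang at 19.5 RPKM, Ang5 at 2.15, Ang4 at 0.995, Ang2 at 0.496 and Ang6 at 0.304. There the intervals of Ang5 and Ang4 overlapped, as did those of Ang4 and Ang2 and of Ang2 and Ang6, so below Ang the order of neighbours is not resolved at this depth.

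The make-up of the family's reads needs no scaling between libraries. Ang took 24.7% of the angiogenin reads in Met_Bcat (exact interval 23.4% to 26.0%) and 90.3% in Bcat_Only (87.4% to 92.8%). Ang5 took 47.7% in Met_Bcat (46.2% to 49.2%) and 5.52% in Bcat_Only (3.70% to 7.88%). Ang4 took 19.8% in Met_Bcat and 2.56% in Bcat_Only, Ang6 5.47% and 0.789%, and Ang2 2.32% and 0.789%. The share of Ang was thus the smaller in Met_Bcat although its own level was higher there.

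**Figure D3:**
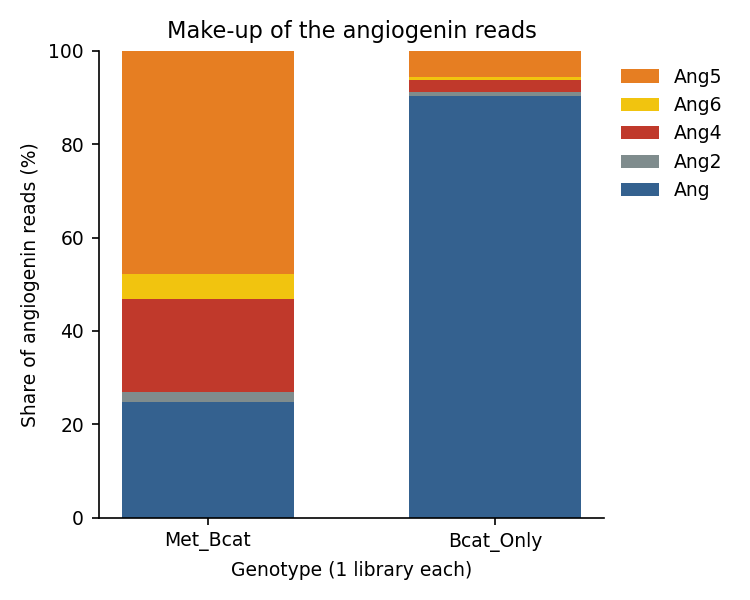
Share of the angiogenin reads, in percent, held by each gene in the Met_Bcat library (left, 4348 reads) and the Bcat_Only library (right, 507 reads). Ang fills 24.7% of the left bar and 90.3% of the right bar, and Ang5 is the largest part of the left bar at 47.7%.

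For the 4 members called higher, the proportions in the libraries had overlapping counting intervals. There were 2.41 Ang5 reads for each Ang4 read in Met_Bcat (2.22 to 2.61) and 2.15 in Bcat_Only (1.08 to 4.53). There were 8.71 Ang5 reads for each Ang6 read in Met_Bcat (7.62 to 10.0) and 7.0 in Bcat_Only (2.45 to 27.5). There were 20.5 Ang5 reads for each Ang2 read in Met_Bcat (16.8 to 25.3) and 7.0 in Bcat_Only (2.45 to 27.5), the pair whose values lay farthest apart. The intervals from Bcat_Only are wide because Ang4, Ang5 and Ang6 had 45 reads there and Ang2 had 4, so an overlap does not show that the proportions were equal. Against Ang the intervals did not overlap, with 1.93 Ang5 reads for each Ang read in Met_Bcat (1.79 to 2.08) and 0.0611 in Bcat_Only (0.0402 to 0.0896).

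How far reads of these copies can be told apart was measured on the GENCODE M21 transcripts, cut into windows of 51 bases, the length of the reads. The coding sequences of the 5 genes were 83.0% to 89.6% identical to one another, with Ang5 and Ang6 the closest pair, and 54.1% to 57.2% identical to that of Rnase4. In Ang5, 4.62% of windows occurred exactly in a transcript of another gene, and 4.40% did in Ang4, 5.20% in Ang2 and none in Ang6. With up to 2 mismatches allowed, the share that resembled another RNase A gene was 23.2% in Ang5, 22.6% in Ang4, 22.6% in Ang6 and 27.0% in Ang2. For Ang5, 14.3% of windows came within 2 mismatches of Ang4 and 12.8% of Ang6, and its exact matches were with Ang4 and Ang2. For Ang6, 21.1% of windows came within 2 mismatches of Ang5, the gene with 8.71 times its reads in Met_Bcat. The M21 transcript of Ang6 is 444 bases long and almost wholly coding, against 714 bases of exon in the table, so windows in the rest of Ang6 were not examined. The 50 bases after the start site, identical between Ang5 and Ang6 in their promoter windows, lie outside that transcript. The shares given for Ang5 and Ang6 may thus be too low. Ang2 has 438 bases of exon in its count row, while an M21 transcript of Ang2 has 896, so its shares may not hold for the counted exon. How the authors' alignment placed such reads is not given in the sources used here, and its part in the values of single members was not tested. The sum over Ang5 and Ang6, which a swap between them cannot alter, had a ratio of 63.2 (44.6 to 92.6). The sum over Ang2, Ang4, Ang5 and Ang6, which a swap among those 4 cannot alter, had a ratio of 58.4 (44.1 to 79.1).

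**Figure D4:**
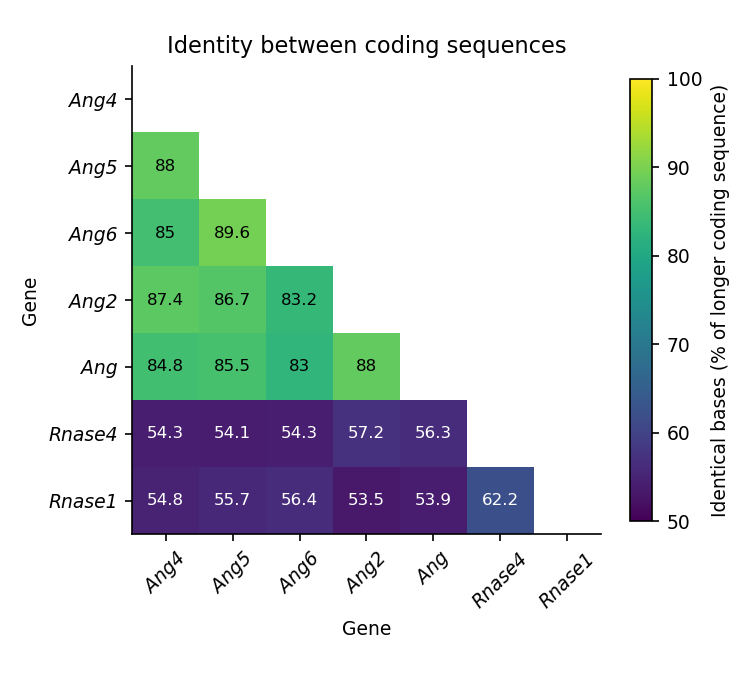
Percentage of identical bases between the coding sequences of the angiogenin genes, Rnase4 and Rnase1 after global alignment, relative to the longer sequence of each pair. The angiogenins share 83.0% to 89.6% with one another and under 58% with Rnase4 or Rnase1.

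Ang carries a further uncertainty, since its row and that of Rnase4 begin at the same base, 51710752, on the same strand. Rnase4 encodes a ribonuclease that prefers uridine, and in mammals it is transcribed with the angiogenin gene from shared promoters. It was the only row of the table that overlapped a member. Of the windows of Ang, 14.2% occurred exactly in another gene, Rnase4 or Ang2. Rnase4 had 9989 reads or 474 CPM in Met_Bcat and 7812 reads or 424 CPM in Bcat_Only, a ratio of 1.12 (1.09 to 1.15). Ang and Rnase4 thus did not have the same ratio within counting error, with 0.108 Ang reads for each Rnase4 read in Met_Bcat (0.101 to 0.115) and 0.0586 in Bcat_Only (0.0532 to 0.0644). Summed with Rnase4, the ratio was 1.17 (1.14 to 1.20), of which Rnase4 supplied most reads.

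Of the wider RNase A superfamily, 15 genes outside the angiogenins were found in the table and 4 reached the minimum. Of these 1 was called higher and none lower, beside 4.42% and 14.6% of all genes. The median log2 ratio was −0.13, beside 0.030 over all genes. The called gene was Rnase1, pancreatic-type ribonuclease (ENSMUSG00000035896, 51764677 to 51766442), which lies between Ang and Ang2. It had 17522 reads or 831 CPM in Met_Bcat and 1793 reads or 97.3 CPM in Bcat_Only, a ratio of 8.54 (8.14 to 8.97). Rnase1 had no window of 51 bases within 2 mismatches of another RNase A gene, so its reads could be told apart from those of the angiogenins. Per kilobase its level was 857 RPKM in Met_Bcat and 100.3 RPKM in Bcat_Only, above every angiogenin gene in both.

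Apart from Rnase1 and Rnase4, the superfamily genes found were weakly expressed. Rnase6, a ribonuclease of macrophages and other leukocytes, had 38 reads in Met_Bcat and 50 in Bcat_Only, a ratio of 0.664 (0.424 to 1.03). Ear2, an eosinophil-associated ribonuclease gene that lies beyond Ang6, had 23 and 30 reads, a ratio of 0.670 (0.372 to 1.19). Ear11, from the same subfamily and next after Ang2 among genes with at least 10 reads, had 35 reads in Met_Bcat and 1 in Bcat_Only, a ratio of 30.6 (5.14 to 1243), but it lay under the minimum of 1 CPM. Rnase9, Rnase11, Rnase12 and Ear14 had no reads in either library, which allows up to 0.142 CPM in Met_Bcat and 0.163 CPM in Bcat_Only for each. Eosinophil genes outside this superfamily summed to 2.23 CPM in Met_Bcat and 6.78 CPM in Bcat_Only, with Epx, eosinophil peroxidase, at 0 and 6 reads. Of 3 that reached the minimum 1, Prg2, was called lower and none higher, beside 14.6% and 4.42% of all genes. Il5ra went the other way, with 30 reads in Met_Bcat and 13 in Bcat_Only, a ratio of 2.02 (1.02 to 4.21).

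Within 250 kb of an angiogenin gene there were 31 other named genes, of which 16 reached the minimum. Of these 2 were called higher and 1 lower, beside 4.42% and 14.6% of all genes, and 13 neither. Eddm3b, an epididymal secretory gene of the same gene-rich stretch, was the other higher neighbour, with 272 reads in Met_Bcat and 76 in Bcat_Only and a ratio of 3.13 (2.42 to 4.09). The lower neighbour was Arhgef40, a guanine nucleotide exchange factor gene, at a ratio of 0.412. Apex1, a DNA repair endonuclease gene, had a ratio of 1.52 (1.41 to 1.63), and Tep1, a telomerase-associated gene, had 0.837 (0.773 to 0.905). High ratios were thus found at separate places along the chromosome, with genes of low or near-even ratio between them.

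**Figure D5:**
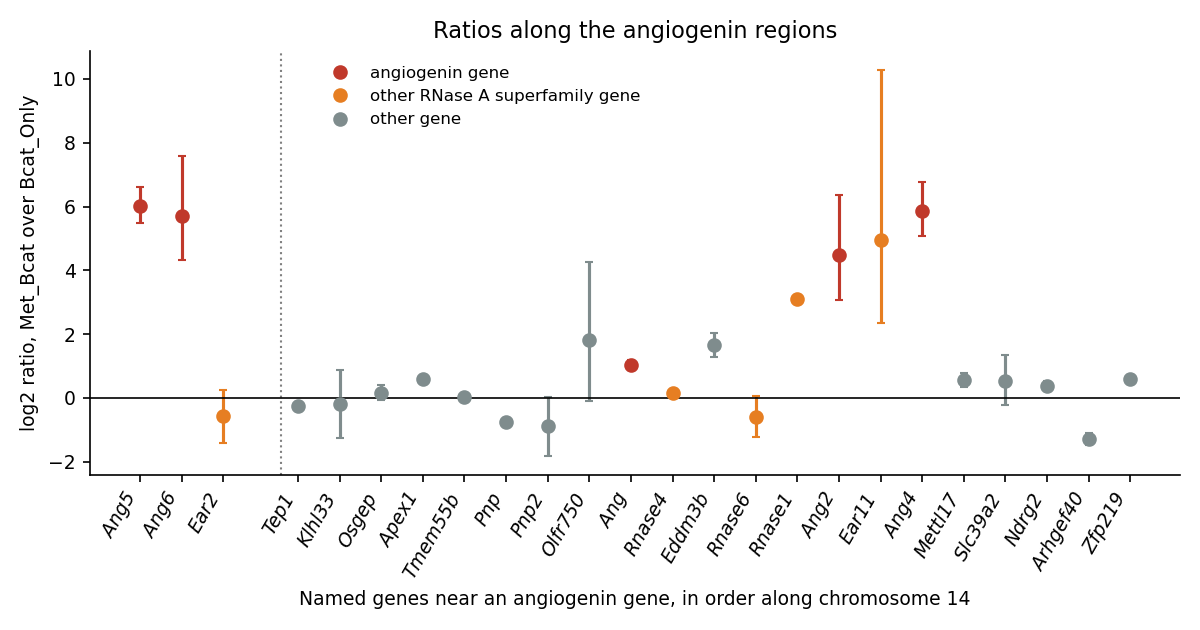
Log2 ratio of reads, Met_Bcat over Bcat_Only, for the 5 angiogenin genes and 19 other named genes within 250 kb of one that had at least 10 reads, in order along chromosome 14, with bars for the exact 95% interval and a dotted line where the regions are far apart. Ang5, Ang6, Ang2 and Ang4 (red) and Ear11 and Rnase1 (orange) lie above 3, while Rnase4 and Rnase6, which stand between Ang and Rnase1, lie at 0.16 and −0.59.

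Genes whose products bind or restrain angiogenin were also examined. Of 7 such genes 6 reached the minimum, with none called higher and 2 lower, beside 4.42% and 14.6% of all genes. With so few genes, none called higher is near the share of all genes. The median log2 ratio was −0.69, beside 0.030 over all genes. Rnh1, which encodes the ribonuclease inhibitor, had 171 CPM in Met_Bcat and 167 CPM in Bcat_Only, a ratio of 1.02 (0.976 to 1.08). Plxnb2, the plexin-B2 gene, had 428 and 721 CPM, 1.68-fold lower in Met_Bcat (1.64 to 1.73). Egfr, whose product is reported as an angiogenin receptor in human pancreatic cancer cells, was 1.56-fold lower (1.47 to 1.64), and the heparan sulphate proteoglycan gene Sdc4 was 1.26-fold lower (1.22 to 1.31). The called genes were Fst, the follistatin gene, at 2.76-fold lower (2.48 to 3.07), and Fbln1, the fibulin 1 gene of the extracellular matrix, at 42.9-fold lower (38.6 to 47.8). Fibroblast genes summed to 936 CPM in Met_Bcat and 26072 CPM in Bcat_Only, and their part in the value of Fbln1 was not tested.

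The genes of other RNA cleavage enzymes and of tRNA protection were near even. Of 9 measured genes none was called higher or lower, beside 4.42% and 14.6% of all genes, and the median log2 ratio was 0.075. Scaled to the luminal genes, 1 was called lower and the median was −0.31. Nsun2, a tRNA methyltransferase that shields tRNA from angiogenin, had a ratio of 1.10 (1.05 to 1.16). G3bp1, a stress granule gene, had 1.54 (1.47 to 1.61), the highest of these 9 ratios.

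Ang4 is a Paneth cell product in the mouse intestine, but Paneth cell genes as a group were not higher in Met_Bcat. Of 20 genes found 8 reached the minimum, with 2 called higher and 5 lower, beside 4.42% and 14.6% of all genes. The median log2 ratio was −2.18, and the summed level was 3908 CPM in Met_Bcat and 5147 CPM in Bcat_Only. The median was −0.63 with no minimum, −0.51 with a minimum of 10 CPM, where 1 gene was called higher and 1 lower, and −1.11 with a pseudocount of 2 CPM. Most of the summed level was Mmp7, the matrilysin gene, at 3523 CPM in Met_Bcat and 5023 CPM in Bcat_Only. The higher genes were Itln1, the lectin intelectin, with 243 reads in Met_Bcat and 1 in Bcat_Only, and Pla2g2a, a secreted phospholipase, at a ratio of 5.32 (5.02 to 5.65). The lower genes were the antimicrobial lectins Reg3b and Reg3g and the defensins Defa20, Defa21 and Defa22. Reg3g had 11 reads in Met_Bcat and 556 in Bcat_Only. Lyz1, the Paneth lysozyme gene, had 10 reads in Met_Bcat and 21 in Bcat_Only.

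Goblet cell genes summed to 77.7 CPM in Met_Bcat and 45.1 CPM in Bcat_Only, with 1 of 4 measured genes called higher, beside 4.42% of all genes. The called gene was Agr2, a protein-folding enzyme gene of secretory cells, at a ratio of 3.29 (2.71 to 4.02). The defining goblet genes Tff3, Retnlb and Zg16 had no reads in either library.

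Of the pancreatic acinar genes, the kind of cell known for Rnase1, 18 were found, and their summed level was 1869 CPM in Met_Bcat and 86.7 CPM in Bcat_Only. Of 4 that reached the minimum 3 were called higher, beside 4.42% of all genes. The 3 were the lipase family genes Pnlip, Pnliprp1 and Pnliprp2, and Pnliprp1 alone had 1720 CPM in Met_Bcat and 50.2 CPM in Bcat_Only. The defining acinar genes were at or near 0 in both, with Amy2a5, Prss1 and Ptf1a without a read, Cpa1 at 7 reads in each library and Clps at 1 read in each. Hepatocyte genes, from another known site of Ang expression, summed to 101 CPM in Met_Bcat and 67.5 CPM in Bcat_Only over 10 genes. Nearly all of this was the cytochrome P450 gene Cyp2e1, at a ratio of 1.57 (1.47 to 1.69). The regulator Hnf4a had 3 reads in Met_Bcat and 39 in Bcat_Only and was called lower, and Alb, the albumin gene, had 0 reads in Met_Bcat and 4 in Bcat_Only. Endothelial genes, which mark blood vessels, had 7 of 12 called lower and none higher, beside 14.6% and 4.42% of all genes. Their median log2 ratio was −1.15. With total counts 4 were called lower, and by a 4-fold rule none was. Eng, the endoglin gene, had a ratio of 1.55 (1.46 to 1.64), above 1 unlike the other 11.

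By likeness of ratio alone, the genes closest to the mean log2 ratio of Ang4 and Ang5 on CPM plus 0.5, at 5.36 over 2 libraries, were Svopl at 5.39, Pnlip at 5.27, Atp6v1c2 at 5.16, Apoc1 at 5.56 and Crabp1 at 5.11. With 2 libraries a likeness is no more than a like ratio.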

How the data were processed

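Total RNA from prostate tumour tissue (200 ng, 10 PCR cycles) was made into stranded mRNA libraries and read from a single end over 51 bases, per the labels' protocols. The authors deposited whole-number counts of reads per gene with Ensembl identifiers and mm9 coordinates, not normalised. TopHat2 (version 2), HTSeq, edgeR and mm9 are named in the submitters' processing notes. Settings for alignment, strand and multiple mapping are not given in the sources used. Columns were matched to samples through the sample number in their headings.

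TMM scaling (edgeR 4.0.16 in R 4.3.3) gave library factors of 1.05 for Met_Bcat and 0.955 for Bcat_Only. CPM is the read count of a gene relative to the scaled library size, and RPKM divides it by the exon length in kilobases that the authors deposited. Ratios are Met_Bcat over Bcat_Only with a 95% exact (Clopper-Pearson) interval conditional on the summed reads. Shares have Clopper-Pearson and levels exact Poisson intervals. List medians use log2 of CPM plus 0.5 over genes whose mean reached 1 CPM, which understates ratios of weak genes. A count of 0 allows 3 reads. No p-value was computed, as no spread can be estimated from 1 library per genotype. Intervals and calls were run on simulated Poisson counts with known ratios, which is the model the intervals assume. The simulation held no PCR copies and no spread between mice, so it checks the calculation only.

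Members, gene lists, motifs and rules were chosen with earlier results of these data known. Of 154 listed symbols 8 were unmatched and 7 were found under another symbol. Named were the angiogenins, named genes within 250 kb with at least 10 reads, and listed superfamily and binding genes. Up to 4 genes of other lists were named by the near interval end, together with markers at 0. The 5 genes most like Ang4 and Ang5 were also named. After their values were seen, Lyz1, Cpa1, Clps, Epx, Alb, Eng and Muc2 were added as defining markers, Nsun2 for its role and Mmp7 for its level. Pla2g2a, Defa21 and Defa22 were likewise added, to complete the called Paneth genes. Promoters come from RefSeq on GRCm38.p6 and transcripts from GENCODE M21, whose coordinates were not combined with those of mm9. Coding sequences were aligned with Biopython 1.88. Alternatives were total counts, median-of-ratios factors, scaling to luminal genes, other minimums, a 4-fold rule, another pseudocount and summed copies.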

Additional observations from a re-analysis of the deposited data

How the results depend on the processing

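No paired analysis was possible because each genotype has 1 library, and for the same reason no library could be left out. Relative to TMM, total counts raised every log2 ratio by 0.13, median-of-ratios factors moved it by under 0.001 and scaling to the luminal genes moved it by −0.39. All 5 angiogenin ratios and their sum stayed above 0 under these scalings. Under luminal scaling the log2 ratio was 0.65 for Ang (1.04 with TMM) and 2.52 for the sum (2.91 with TMM). The sum was 2.05 without Ang5, and Ang with Rnase4 was 0.23, an alternative chosen after seeing the data. Called angiogenins were 5 with total counts, which adds Ang, and 2 with a minimum of 10 CPM, which leaves Ang2 and Ang6 out, against 4. Genes called higher were 398 under luminal scaling, 356 with a minimum of 10 CPM and 251 by the 4-fold rule, against 635. Genes called lower were 1226 with that minimum and 1086 by that rule, against 2102. With no minimum, the superfamily list had 2 genes called higher. Its median turned to 0.13 with no minimum and to 1.62 with 10 CPM. Binding genes called lower were 1 by the 4-fold rule, and their median was −0.56 with total counts and −1.08 under luminal scaling. The median turned for the RNA cleavage list (−0.31, luminal scaling), the acinar list (−0.081, no minimum), the hepatocyte list (0.65, minimum of 10 CPM) and the luminal list (−1.9e-05, its own scaling). Per kilobase, shares in Met_Bcat were 52.8% for Ang5, 21.9% for Ang4, 15.2% for Ang and 4.15% for Ang2, and in Bcat_Only 83.2% for Ang, 9.15% for Ang5 and 2.11% for Ang2. The 28 to 4 reads of Ang5, Ang4, Ang6 and Ang2 in Bcat_Only limit the precision of their ratios.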
